A study of Mus musculus with 8 samples.

Results

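The nuclear genes of the last steps of oxidative phosphorylation were followed in mouse splenic T cells with and without a knockout of Sdha, a subunit of mitochondrial complex II. The set was all rows of the UMI matrix whose symbol starts with Uqcr, with Cox and a digit, or with Atp5, plus Cyc1, Cycs and Atpif1, which gave 52 of the 20170 genes: 9 of complex III, Cycs, 24 of complex IV and 18 of ATP synthase. Of the 24 complex IV genes, 10 encode the subunits that most tissues use, 4 encode tissue isoforms and 10 encode assembly or supercomplex factors. The 18 ATP synthase genes fall into 5 of the catalytic F1 head, 3 of the membrane c ring, 4 of the peripheral stalk, 5 accessory membrane subunits and the inhibitor Atpif1. All 52 passed the filter on low counts in the cells classed as CD4 by the study and 51 in those classed as CD8, where Cox4i2 did not. T cells from spleens of WT mice and of Sdha fl/fl CD4-Cre mice (SDHA-KO), whose Cre acts in thymocytes before the CD4 and CD8 lineages part, were kept in culture without antibodies (unstimulated) or with soluble anti-CD3 at 5 µg/mL and anti-CD28 at 2.5 µg/mL for 48 h (stimulated). Each of the 4 groups had 2 libraries of 3′ single-cell RNA-seq, 12846 cells in all. The mice were young adults by the study's methods. The study describes the sequenced WT T cells as coming from mice of the B6 strain. It lists its WT transplant donors as Sdha fl/fl. Whether the WT mice behind these libraries carry the floxed alleles is not stated. The number of animals behind a library is not given in the sources used here. The p-values therefore measure only the spread between libraries, which may be technical.

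Complex III passes electrons from ubiquinol to cytochrome c, and complex IV passes them from cytochrome c to oxygen, both pumping protons across the inner mitochondrial membrane. ATP synthase lets the protons flow back through a rotating c ring and makes ATP in its F1 head. Complex II, which holds SDHA, feeds electrons in upstream of complex III and pumps no protons. Each of the 3 complexes is built from nuclear subunits and from a few subunits encoded in mitochondrial DNA, and T cells enlarge their mitochondrial mass when they are activated.

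The genes lie apart in the genome: 51 of the 52 matched the annotation and sat on 18 chromosomes, with at most 6 on any chromosome and 1 on X. RefSeq promoter windows of 300 bases, from 250 before to 50 after the start site on GRCm38.p6, were found for 39 of the 52 by symbol, without Cox4i2, Atp5f1, Cox18, Uqcrc2, Cox6a2, Cox4i1, Uqcrq, Atp5mpl, Uqcrb, Cox6c, Cyc1, Cox17 and Atp5a1. The windows of 7 members are printed because these genes carried the strongest responses to stimulation (Cycs and Atpif1 upwards, Cox7a2l, Cox20 and Cox14 downwards) or are paralogs that parted between genotypes (Atp5g1 and Atp5g2). Capitals mark matches, on either strand, to the core letters of factors known to act on such genes: GCGCANGC for NRF1, CCGGAAG for ETS factors such as GABP, and AAGATGGC for YY1. Each is written 5′ to 3′ on the strand of the gene.
Cycs (chr6:50566520-50566819, minus strand): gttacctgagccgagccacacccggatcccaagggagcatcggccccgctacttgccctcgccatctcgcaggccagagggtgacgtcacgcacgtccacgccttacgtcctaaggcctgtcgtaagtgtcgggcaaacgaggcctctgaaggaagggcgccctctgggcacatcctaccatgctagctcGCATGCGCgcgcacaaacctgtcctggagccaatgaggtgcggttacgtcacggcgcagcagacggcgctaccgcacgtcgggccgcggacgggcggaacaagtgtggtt
Atpif1 (chr4:132535365-132535664, minus strand): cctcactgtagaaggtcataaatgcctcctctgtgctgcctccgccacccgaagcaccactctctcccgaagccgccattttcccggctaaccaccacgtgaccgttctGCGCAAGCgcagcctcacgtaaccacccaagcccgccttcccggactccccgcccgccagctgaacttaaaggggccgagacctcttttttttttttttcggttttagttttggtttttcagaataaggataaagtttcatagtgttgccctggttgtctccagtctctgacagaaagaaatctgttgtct
Cox14 (chr15:99725368-99725667, plus strand): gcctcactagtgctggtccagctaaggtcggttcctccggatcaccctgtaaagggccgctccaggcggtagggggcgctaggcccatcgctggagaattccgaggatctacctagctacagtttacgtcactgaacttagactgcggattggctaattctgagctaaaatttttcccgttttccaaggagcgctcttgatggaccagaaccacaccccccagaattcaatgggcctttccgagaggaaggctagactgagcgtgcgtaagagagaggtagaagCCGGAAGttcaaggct
Cox20 (chr1:178318903-178319202, plus strand): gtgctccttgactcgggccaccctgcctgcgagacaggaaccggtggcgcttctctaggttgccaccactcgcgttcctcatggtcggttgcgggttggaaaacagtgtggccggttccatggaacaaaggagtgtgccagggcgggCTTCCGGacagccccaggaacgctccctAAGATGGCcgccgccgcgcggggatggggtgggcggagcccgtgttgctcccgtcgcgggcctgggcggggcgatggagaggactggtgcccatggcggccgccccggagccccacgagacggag
Cox7a2l (chr17:83514284-83514583, minus strand): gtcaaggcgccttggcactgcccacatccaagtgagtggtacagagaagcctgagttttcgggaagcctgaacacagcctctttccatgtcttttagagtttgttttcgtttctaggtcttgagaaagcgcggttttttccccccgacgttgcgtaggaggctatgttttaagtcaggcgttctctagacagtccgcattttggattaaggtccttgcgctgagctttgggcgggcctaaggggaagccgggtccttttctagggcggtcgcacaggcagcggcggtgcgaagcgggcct
Atp5g1 (chr11:96075582-96075881, minus strand): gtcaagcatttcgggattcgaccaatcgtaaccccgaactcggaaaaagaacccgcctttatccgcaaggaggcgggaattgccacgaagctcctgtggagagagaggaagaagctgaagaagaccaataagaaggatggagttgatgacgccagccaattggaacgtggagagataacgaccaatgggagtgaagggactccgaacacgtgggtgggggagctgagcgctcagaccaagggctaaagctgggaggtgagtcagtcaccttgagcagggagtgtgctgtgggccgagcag
Atp5g2 (chr15:102670998-102671297, minus strand): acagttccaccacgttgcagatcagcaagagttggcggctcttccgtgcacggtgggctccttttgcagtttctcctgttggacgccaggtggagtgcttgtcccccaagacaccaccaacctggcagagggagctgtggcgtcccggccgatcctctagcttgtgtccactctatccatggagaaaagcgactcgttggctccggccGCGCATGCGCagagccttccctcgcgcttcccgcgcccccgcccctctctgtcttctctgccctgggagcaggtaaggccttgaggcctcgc
The Cycs and Atpif1 windows held 1 NRF1 core each, the Atp5g2 window held 2 that overlap on opposite strands, Cox14 and Cox20 held an ETS core, and Cox20 also a YY1 core. The windows of Cox7a2l and Atp5g1 had no match to these letters. Among the 39 members with a window, 14 (35.9%) held the NRF1 core, 16 (41.0%) the ETS core, 4 (10.3%) the YY1 core and 24 (61.5%) at least 1 of them. The shares were 21.9%, 20.2%, 5.18% and 39.9% of the 10590 genes tested in the CD4 class that have a window, and 11.2%, 9.93%, 3.19% and 21.1% of all 27025 genes of the promoter table. A match is a description of the sequence and not of binding.

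The libraries held 10947009 to 51398728 UMIs in 1395 to 1801 cells. Sdha itself, whose 3′ counts do not tell intact from recombined transcripts, stood at 92.5 and 91.8 CPM of all UMIs in the CD4 class of unstimulated WT against 45.8 and 46.7 in SDHA-KO, and at 80.1 and 77.4 against 28.9 and 28.6 after stimulation. In the CD8 class it stood at 76.7 and 79.5 against 35.7 and 34.5, and at 89.9 and 86.3 against 59.97 and 55.89 after stimulation, so SDHA-KO was lower than WT in every pair. The stimulated CD8 level of SDHA-KO depends on which cells are taken: among cells with a UMI of their own coreceptor, none of the other and none of Trdc it was 33.4 and 30.7 against 90.1 and 85.3 in WT. The 7 T-cell markers summed to between 1291 and 3681 CPM in all libraries of both classes. The coreceptors among them were not level between the genotypes. Cd4 was at 155 and 155 CPM in unstimulated WT CD4 cells against 550 and 631 in SDHA-KO. In stimulated CD8 cells Cd8a was at 171 and 182 in WT against 87.2 and 118.5 in SDHA-KO, and Cd8b1 at 293 and 317 against 124 and 155. B-cell markers summed to at most 23.7 CPM, myeloid to at most 6.75, NK to at most 7.14 with Klra8 at 0, and erythroid and platelet markers to at most 2.79. The γδ T-cell marker Trdc, the single gene of its list in the matrix, was at 7.74 to 20.9 CPM in the CD8 class of the 4 WT libraries and at 124 to 164 in the 4 SDHA-KO libraries, and the effect of leaving out its cells, together with those lacking a clear coreceptor, is given beside the results it changes. Under that limit 33 of the 34 members higher in stimulated SDHA-KO CD8 cells were still higher. The limit does not even out mitochondrially encoded UMIs. In the stimulated CD8 cells it kept they made up 9.99% and 8.46% of UMIs in WT against 2.66% and 3.37% in SDHA-KO. Of the cell barcodes, 23 occurred in 2 libraries or more (46 cells). The stimulated groups differed most in percent.mt, the percent of a cell's UMIs from the 13 mitochondrially encoded genes, whose medians were 15.9 and 14.9 in CD4 WT against 1.79 and 1.77 in SDHA-KO, and 19.0 and 16.9 in CD8 WT against 3.22 and 3.43. Every comparison was therefore also made in the cells under 10. These were 336 of 859 and 396 of 967 stimulated WT CD4 cells, 988 of 1137 and 1156 of 1284 SDHA-KO CD4 cells, 205 of 844 and 244 of 834 WT CD8 cells, and 332 of 511 and 254 of 396 SDHA-KO CD8 cells. The kept CD4 cells had medians of 59714 and 59711 UMIs in WT against 26638 and 26961 in SDHA-KO, so the selected cells of the 2 genotypes are not alike in depth.

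Stimulation of WT cells raised most of these genes and lowered a smaller group that holds assembly factors. In the CD4 class 37 members rose and 7 fell (edgeR's quasi-likelihood test, adjusted p under 0.05 over all 14264 genes, used throughout), where 36.2% of all genes rose and 30.1% fell, and the median change of the members was 0.54 on the log2 scale against 0.08 for all genes. In the CD8 class 27 rose and 10 fell, where 35.5% and 30.3% of 13095 genes did, with a median of 0.24 against 0.09. All 27 that rose in CD8 cells were among the 37 of CD4 cells, and all 7 that fell in CD4 cells were among the 10 of CD8 cells. The split depends on the scaling, which here is TMM, a normalization that sets the typical gene near no change. With plain library totals the median gene moved by 0.30 in CD4 and 0.57 in CD8, the members by 0.76 and 0.73, the counts became 40 up and 6 down in CD4 (all genes 43.9% and 23.2%) and 38 up and 5 down in CD8 (52.8% and 17.0%), and the members' median above that of all genes stayed at 0.46 in CD4 and at 0.16 in CD8.

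Apart from the rarely counted tissue isoforms, the ATP synthase inhibitor and the electron carrier rose most in both classes. Atpif1 encodes the inhibitor that blocks ATP hydrolysis by a reversed ATP synthase. Its level was 59.8 and 56.6 TMM-scaled CPM in unstimulated WT CD4 cells and 233 and 258 after stimulation, and 55.7 and 64.5 against 193 and 209 in CD8 cells. All stimulated libraries lay above all unstimulated ones, a log2 change of 2.08 ± 0.10 (SE, adjusted p = 1.23e-08) in CD4 and 1.74 ± 0.092 (adjusted p = 2e-08) in CD8. Cycs, the soluble electron carrier cytochrome c, went from 111 and 104 to 313 and 323 in CD4 cells and from 121 and 122 to 296 and 319 in CD8 cells. These are rises of 1.57 ± 0.081 (adjusted p = 1.6e-08) and 1.34 ± 0.087 (adjusted p = 1.16e-07), and again no library of one state reached the other.

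Among the complexes, all 10 common complex IV subunits rose in CD4 cells and 7 of 10 in CD8 cells, and 8 and 7 of the 9 complex III genes did. Cox5a, a nuclear subunit on the matrix side of complex IV, stood at 178 and 179 in unstimulated and 444 and 450 in stimulated WT CD4 cells, a rise of 1.32 ± 0.082. Atp5b, the catalytic β subunit of F1, went from 309 and 285 to 701 and 715 (1.25 ± 0.081), and Uqcrq, a small complex III subunit, from 195 and 187 to 448 and 447 (1.23 ± 0.077). Cyc1, the heme-bearing cytochrome c1 of complex III, went from 68.8 and 62.9 to 141 and 142 in CD8 cells (1.11 ± 0.080). The groups of 2 libraries did not overlap for any of the 4. In ATP synthase the F1 head had 4 of 5 and 3 of 5 members up in the classes, the c ring 3 of 3 and 2 of 3, and the stalk 3 of 4 in both, while the 5 accessory membrane subunits had 1 up in CD4 cells and none up and 2 down in CD8 cells.

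Assembly and supercomplex factors led the fallers. Cox7a2l encodes a factor known for tying complexes III and IV into supercomplexes, and whether it does so in these mice was not tested. Cox7a2l was at 560 and 575 TMM-scaled CPM in unstimulated and 207 and 214 in stimulated WT CD4 cells. In CD8 cells it was at 659 and 669 against 155 and 165. It fell by 1.43 on the log2 scale in CD4 (SE 0.079, adjusted p = 2.77e-08) and by 2.05 in CD8 (SE 0.070, adjusted p = 9.05e-10). Cox20, a chaperone of the mitochondrially encoded subunit COX2, went from 87.6 and 88.1 to 37.6 and 38.2 in CD4 cells (−1.21 ± 0.089) and from 80.0 and 76.7 to 28.0 and 30.7 in CD8 cells (−1.42 ± 0.088). Cox14, which couples COX1 synthesis to assembly, went from 104 and 105 to 72.8 and 76.0 (−0.49 ± 0.080) and from 119 and 103 to 46.8 and 53.6 (−1.14 ± 0.099). In all 3 the stimulated libraries lay below the unstimulated ones in both classes. Of the 10 assembly and supercomplex factors, 2 rose and 4 fell in CD4 cells and 1 rose and 5 fell in CD8 cells.

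Subunits were among the fallers as well. Uqcrh, the hinge protein of complex III, went from 628 and 627 to 439 and 477 in CD4 cells (−0.45 ± 0.070) and from 714 and 669 to 314 and 348 in CD8 cells (−1.06 ± 0.078), and Atp5e, the ε subunit of the F1 stalk, from 777 and 813 to 522 and 602 (−0.50 ± 0.093) and from 868 and 912 to 387 and 466 (−1.06 ± 0.098). Atp5h and Cox16 fell in both classes too. In the cells with percent.mt under 10 the WT changes were 42 up and 4 down in CD4 (all genes 37.7% and 32.0%) and 37 up and 7 down in CD8 (36.1% and 31.6%), with medians of 0.95 and 0.74. There Cox7a2l, Cox20 and Cox16 still fell in both classes, whereas the CD4 values of Uqcrh (−0.03 ± 0.066), Atp5e (−0.02 ± 0.087) and Cox14 (−0.04 ± 0.077) no longer passed the test and Atp5h rose by 0.25 ± 0.066 (adjusted p = 0.00454). Of the 7 members that fell in CD4 cells, all of which have a promoter window, 6 hold the ETS core (Atp5e, Atp5h, Cox14, Cox16, Cox20 and Uqcrh), and of the 26 risers with a window 5 do. The ETS core was in 41.0% of all members with a window and in 20.2% of tested genes with a window. Of the fallers that hold it, Atp5e, Atp5h, Cox14 and Uqcrh did not fall in the low-percent.mt CD4 cells. This small group was looked at after its members were known, so no link between the core and a fall is read from it.

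**Figure D1:**
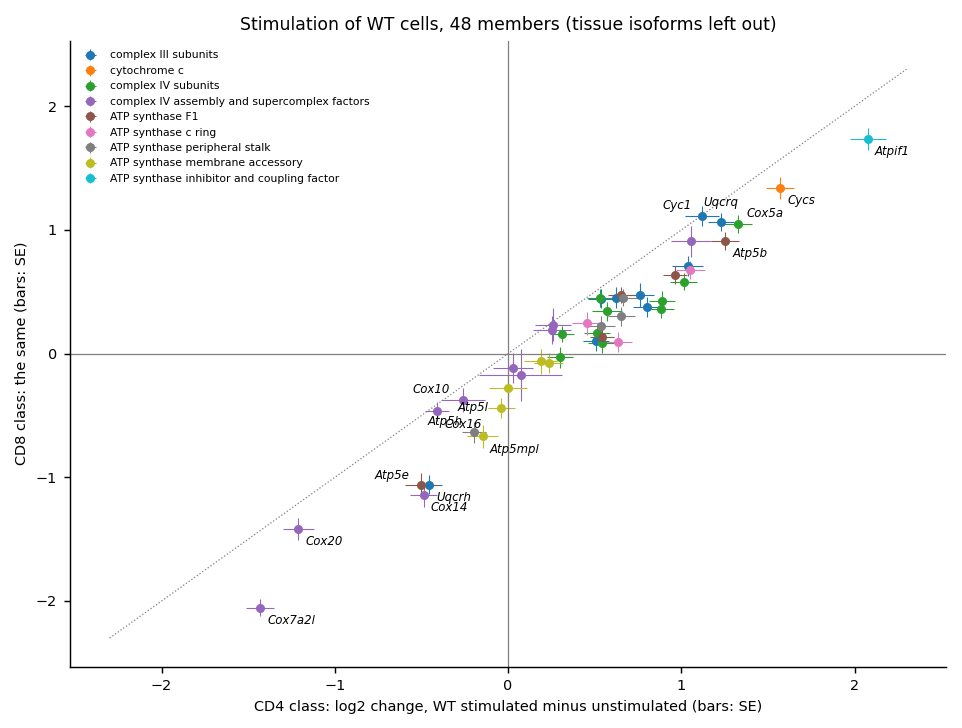
Each point is 1 of 48 genes (the tissue isoforms are left out), with the log2 change of WT cells on stimulation in the CD4 class on the x axis and in the CD8 class on the y axis, bars giving the SE from 2 libraries a group and colors the role. Atpif1 and Cycs lie at the upper right, Cox7a2l at the lower left at −1.43 and −2.05, and with TMM scaling all 48 points lie below the dotted line of equal change.

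SDHA-KO cells also changed these genes on stimulation, 43 up and 4 down in CD4 cells (all genes 36.6% and 33.2%) and 37 up and 7 down in CD8 cells (37.2% and 30.9%). The medians of the members were 0.83 and 0.66, and Cycs rose by 2.25 and 2.17 and Atpif1 by 2.16 and 2.14 in the 2 classes. The 4 that fell in CD4 cells, Cox20, Uqcrh, Cox16 and Cox7a2l, also fell in CD8 cells. Leaving out 1 library at a time gave 2 or 3 fallers in CD4 cells, with 2 without unstimulated WT 1, unstimulated WT 2, unstimulated SDHA-KO 2, stimulated WT 1, stimulated SDHA-KO 1 or stimulated SDHA-KO 2.

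Before stimulation no member passed the test between the genotypes in either class. The background was low too, 0.526% of genes higher and 0.575% lower in CD4 cells, with 0.283% higher and 0.664% lower in CD8 cells. At an unadjusted p under 0.05 1 member passed in CD4 cells against 6 in CD8 cells. The share of all genes at that limit was not counted, so no difference between the classes is read from it. DESeq2 called 0 members in CD4 cells and 1, lower, in CD8 cells. The median of the members was −0.02 in CD4 and −0.08 in CD8. Cox7a2l had the smallest p among them, at 659 and 669 TMM-scaled CPM in WT against 558 and 532 in SDHA-KO CD8 cells, without overlap, with an adjusted p of 0.0908.

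After stimulation these genes were higher in SDHA-KO than in WT cells when all cells of a class were summed. In CD4 cells 26 members were higher and 3 lower, where 22.7% of all genes were higher and 20.5% lower, and the median of the members was 0.23 against −0.0009 for all genes. In CD8 cells 34 were higher and 1 lower, where 26.8% and 23.5% of genes were, with a median of 0.32 against −0.01. The classes shared 23 of the higher members, which are 23 of 26 in CD4 and 23 of 34 in CD8, and Cox7a1 was lower in both. Both classes come from the same libraries, so the overlap is not independent evidence. A summed level is a share of all UMIs of the class, so more cells rich in a transcript and more transcript per cell cannot be told apart in it. Without 1 library at a time, 18 to 29 members were higher in CD4 cells and 24 to 35 in CD8 cells, and the 3 lower in CD4 cells became 1 without stimulated WT 1.

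Apart from the tissue isoforms described further on, the largest called rises were those of the assembly factors Cox18 and Cox19 and the electron carrier Cycs in CD4 cells and of Cox19 and Cycs in CD8 cells. Cycs stood at 313 and 323 TMM-scaled CPM in stimulated WT CD4 cells and at 493 and 539 in SDHA-KO, and at 296 and 319 against 514 and 533 in CD8 cells. The knockout libraries were higher without overlap, by 0.70 ± 0.075 on the log2 scale (adjusted p = 3.61e-05) and by 0.77 ± 0.079 (adjusted p = 1.77e-05). Cox19, a small protein of the intermembrane space that serves copper delivery to complex IV, was at 23.9 and 26.9 against 40.8 and 42.6 in CD4 cells and at 23.2 and 24.5 against 49.3 and 52.2 in CD8 cells. It was higher by 0.72 ± 0.091 (adjusted p = 0.000115) and 1.09 ± 0.087 (adjusted p = 3.86e-06). Cox18, the insertase that moves the tail of COX2 across the inner membrane, was at 19.1 and 16.7 against 29.9 and 31.6 (0.78 ± 0.097, adjusted p = 9.71e-05) and at 18.1 and 18.7 against 26.3 and 29.0 (0.58 ± 0.094, adjusted p = 0.000386). Neither Cox18 nor Cox19 had passed the test on WT stimulation in all cells of a class, with 0.03 ± 0.12 and 0.25 ± 0.11 in CD4 cells. Among cells with percent.mt under 10, Cox19 did pass as higher on WT stimulation in both classes. It went there from 19.5 and 21.5 to 30.7 and 34.3 in CD4 cells and from 18.6 and 21.1 to 33.4 and 32.2 in CD8 cells.

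Cox14, which fell on stimulation of WT cells, was at 72.8 and 76.0 in WT and 116 and 124 in SDHA-KO CD4 cells, a difference of 0.69 ± 0.075 (adjusted p = 3.9e-05) that put the knockout at or above the unstimulated WT levels of 104 and 105. In CD8 cells it was at 46.8 and 53.6 against 65.2 and 69.7 (0.42 ± 0.091), below the unstimulated libraries. In the other direction Cox11, a copper-binding assembly factor, was at 30.7 and 29.1 in WT against 23.2 and 24.1 in SDHA-KO CD4 cells, lower by 0.34 (SE 0.092, adjusted p = 0.0122). That call was lost without stimulated WT 1 (−0.29, adjusted p = 0.105). The 10 assembly and supercomplex factors had 7 higher and 1 lower in CD4 cells and 6 higher in CD8 cells, and Cox7a2l was at 207 and 214 against 251 and 249 in CD4 cells (0.25 ± 0.077, adjusted p = 0.0223), a call lost without stimulated WT 1 (0.24, adjusted p = 0.116) or stimulated WT 2 (0.29, adjusted p = 0.0626), and at 155 and 165 against 161 and 167 in CD8 cells, where the groups overlapped. With the limit on coreceptors and Trdc it passed in CD8 cells too (0.38, adjusted p = 0.0016).

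Within the complexes, 3 of 9 complex III genes were higher in SDHA-KO CD4 cells and 7 of 9 in CD8 cells. Cyc1 was at 132 and 133 against 169 and 192 in CD4 cells (0.45 ± 0.086) and at 141 and 142 against 211 and 224 in CD8 cells (0.62 ± 0.068, adjusted p = 2.81e-05), and Uqcrb, a subunit at the ubiquinone site, at 236 and 239 against 305 and 332 in CD4 cells (0.42 ± 0.074). Of the 10 common complex IV subunits 5 were higher in CD4 and 6 in CD8 cells. The largest rise among them was Cox7a2 in CD4 cells, at 424 and 443 against 578 and 625 (0.47 ± 0.073), and Cox5a in CD8 cells, at 416 and 438 against 571 and 588 (0.44 ± 0.070). Cox7c, at 818 and 883 against 877 and 895 in CD4 cells, overlapped between the genotypes and did not pass the test (0.06 ± 0.083).

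In ATP synthase the 5 F1 genes had 2 higher in CD4 and 4 in CD8 cells, the 4 stalk genes 3 and 4, and the 5 accessory genes 2 in each class. Atp5e was at 522 and 602 against 824 and 869 in CD4 cells (0.59 ± 0.093, adjusted p = 0.00046) and at 387 and 466 against 555 and 580 in CD8 cells (0.41 ± 0.096, and 0.77 with the limit on coreceptors and Trdc). Atp5a1, the α subunit of F1, was at 325 and 328 against 445 and 451 in CD8 cells (0.46 ± 0.065, adjusted p = 0.000158). In the stalk Atp5o, also known as OSCP, was at 255 and 271 against 326 and 362 in CD4 cells (0.39 ± 0.076), Atp5h was at 374 and 392 against 479 and 500 (0.35 ± 0.068), and Atp5f1 was at 347 and 347 against 482 and 499 in CD8 cells (0.50 ± 0.067). None of these groups overlapped. Atpif1 was at 233 and 258 against 275 and 304 in CD4 cells (0.24 ± 0.090, adjusted p = 0.0519) and at 193 and 209 against 289 and 299 in CD8 cells (0.55 ± 0.077, adjusted p = 0.000147). Among the accessory subunits Atp5k was at 239 and 289 against 320 and 331 in CD4 cells (0.30 ± 0.11), Atp5l at 301 and 329 against 369 and 389 (0.27 ± 0.078) and Atp5j2 at 356 and 400 against 429 and 450 (0.22 ± 0.077) in CD8 cells.

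**Figure D2:**
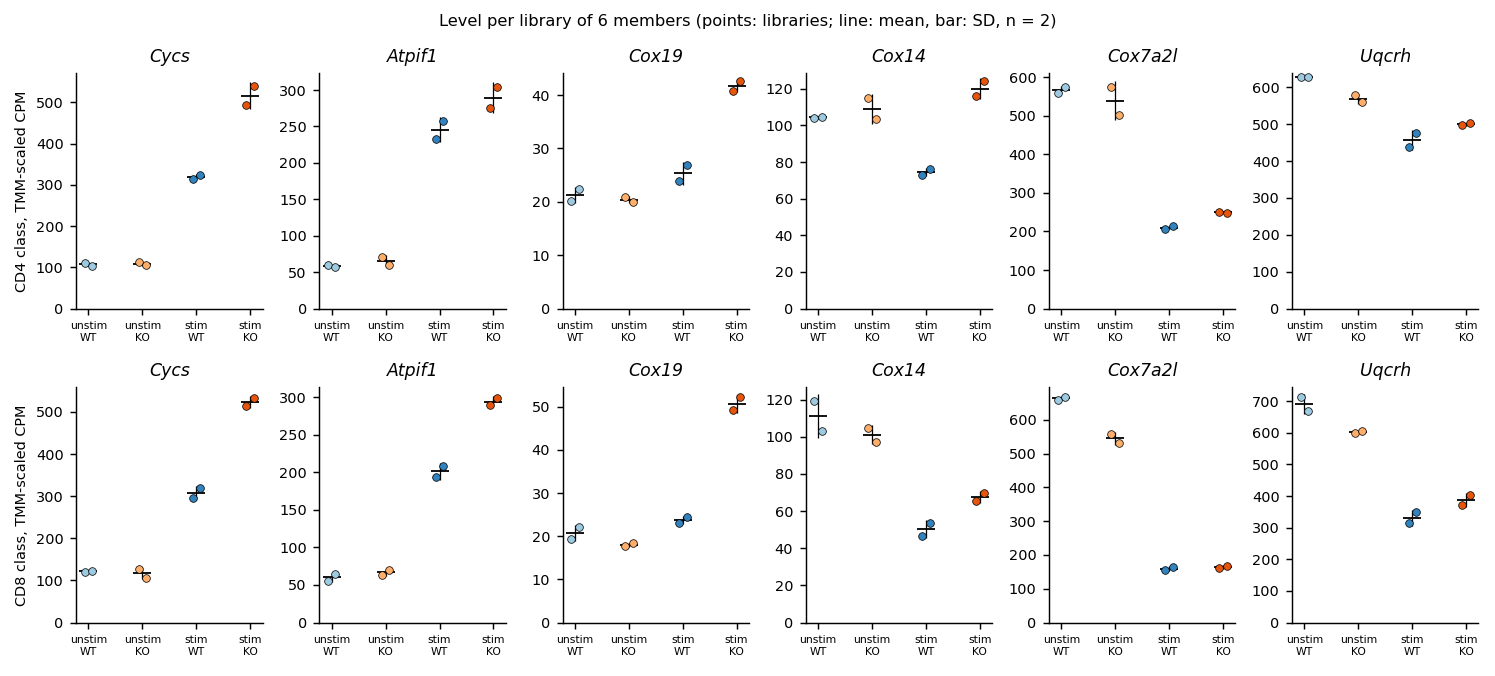
Level per library of 6 genes in TMM-scaled CPM (y axis, from 0) by group (x axis), CD4 class above and CD8 class below, with each point 1 library, the line the mean and the bar the SD of 2 libraries. The stimulated SDHA-KO points of Cycs, at 493 to 539, and of Cox19, at 40.8 to 52.2, lie above those of all other groups, while Cox7a2l and Uqcrh are lower after stimulation in both genotypes.

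Most of these genotype differences were not seen among the cells with percent.mt under 10, and the direction of the whole set turned. There 8 members were higher and 19 lower in CD4 cells, where 16.0% of all genes were higher and 16.7% lower, with a median of −0.12, and 8 were higher and 13 lower in CD8 cells, where 18.4% and 17.0% of genes were, with a median of −0.05. Of the 26 members higher in all CD4 cells 8 were still higher, and 18 no longer passed. The direction rests on the scaling: with library totals in place of TMM 14 were higher and 4 lower in CD4 cells (all genes 30.8% and 9.94%) and 12 higher and 7 lower in CD8 cells (23.8% and 13.4%). Under library totals the median gene itself was shifted by 0.19 in CD4 and 0.07 in CD8 cells, and relative to the median gene the members were at −0.12 in CD4 under either scaling and at −0.04 and −0.03 in CD8. Set against the typical gene of the same cells, the set as a whole was therefore not raised in low-percent.mt SDHA-KO cells, and in all cells it was, by 0.23 in CD4 and 0.33 in CD8 cells. The part of the unequal cell numbers and UMIs per cell in this was not tested. A repeat with cells of at least 20000 UMIs gave 8 higher and 18 lower in CD4 and 7 higher and 17 lower in CD8 cells. These counts stand without the shares of all genes, so they are not read as a result about the members. The limit of 20000 UMIs did not even out depth. The stimulated medians were still 63628 and 63423 UMIs in WT against 32023 and 32678 in SDHA-KO CD4 cells, and 67358 and 66909 against 49820 and 47885 in CD8 cells.

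A small group kept a higher level in SDHA-KO in both selections of cells and in both classes: Cycs, Cox19, Cox18, Cox10, Cox16, Atp5g1 and the tissue isoform Cox6b2. Cycs was at 415 and 421 against 499 and 536 TMM-scaled CPM in low-percent.mt CD4 cells (0.31 ± 0.071, adjusted p = 0.00642) and at 457 and 455 against 556 and 578 in CD8 cells (0.31 ± 0.073, adjusted p = 0.00648), without overlap. Cox19 was higher by 0.36 ± 0.088 (adjusted p = 0.00946) and 0.73 ± 0.087 (adjusted p = 0.000107), and Cox18 by 0.61 ± 0.093 (adjusted p = 0.000491) and 0.29 ± 0.096 (adjusted p = 0.0369). Cox10, which acts at an earlier step on the way to the heme A of complex IV, was higher by 0.40 ± 0.11 and 0.34 ± 0.089. Cox16, which acts in the COX2 module, was higher by 0.32 ± 0.069 and 0.28 ± 0.070. Not all of these calls held in narrower selections of low-percent.mt cells. With the limit on coreceptors and Trdc, Atp5g1 was lost in both classes (0.21, adjusted p = 0.0747, and 0.19, adjusted p = 0.0928) and Cox10 in CD8 cells, where Cox10 was also lost among cells of any percent.mt, and with at least 20000 UMIs Cox18 was lost in CD8 cells (0.27, adjusted p = 0.0548). Cox14 kept its call in CD4 cells (0.30 ± 0.073, adjusted p = 0.00886) and stood at 71.8 and 74.7 against 70.5 and 75.4 in CD8 cells, where the groups overlapped. By role, the assembly factors had 5 higher and 2 lower in CD4 and 4 higher and 2 lower in CD8 cells, whereas the 10 common complex IV subunits had 4 lower and none higher in both.

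The members lower in low-percent.mt SDHA-KO cells of both classes were Cox5b, Cox6c, Cox7c and Cox8a of complex IV, Cox20, the tissue isoform Cox7a1, the F1 γ subunit Atp5c1, the c-ring gene Atp5g2, and the accessory subunits Atp5j2, Atp5mpl and Atp5md. The largest CD4 differences among the subunits were Uqcr11 at −0.47 ± 0.073 (adjusted p = 0.000548) and Atp5c1 at −0.46 ± 0.066 (adjusted p = 0.000338). Cox7a2l, at 0.04 in all CD8 cells, was lower there by 0.35 (SE 0.061, adjusted p = 0.00127) in the low-percent.mt cells. With the limit on coreceptors and Trdc as well, the CD8 differences of Cox7a2l and Cox7c were no longer negative.

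**Figure D3:**
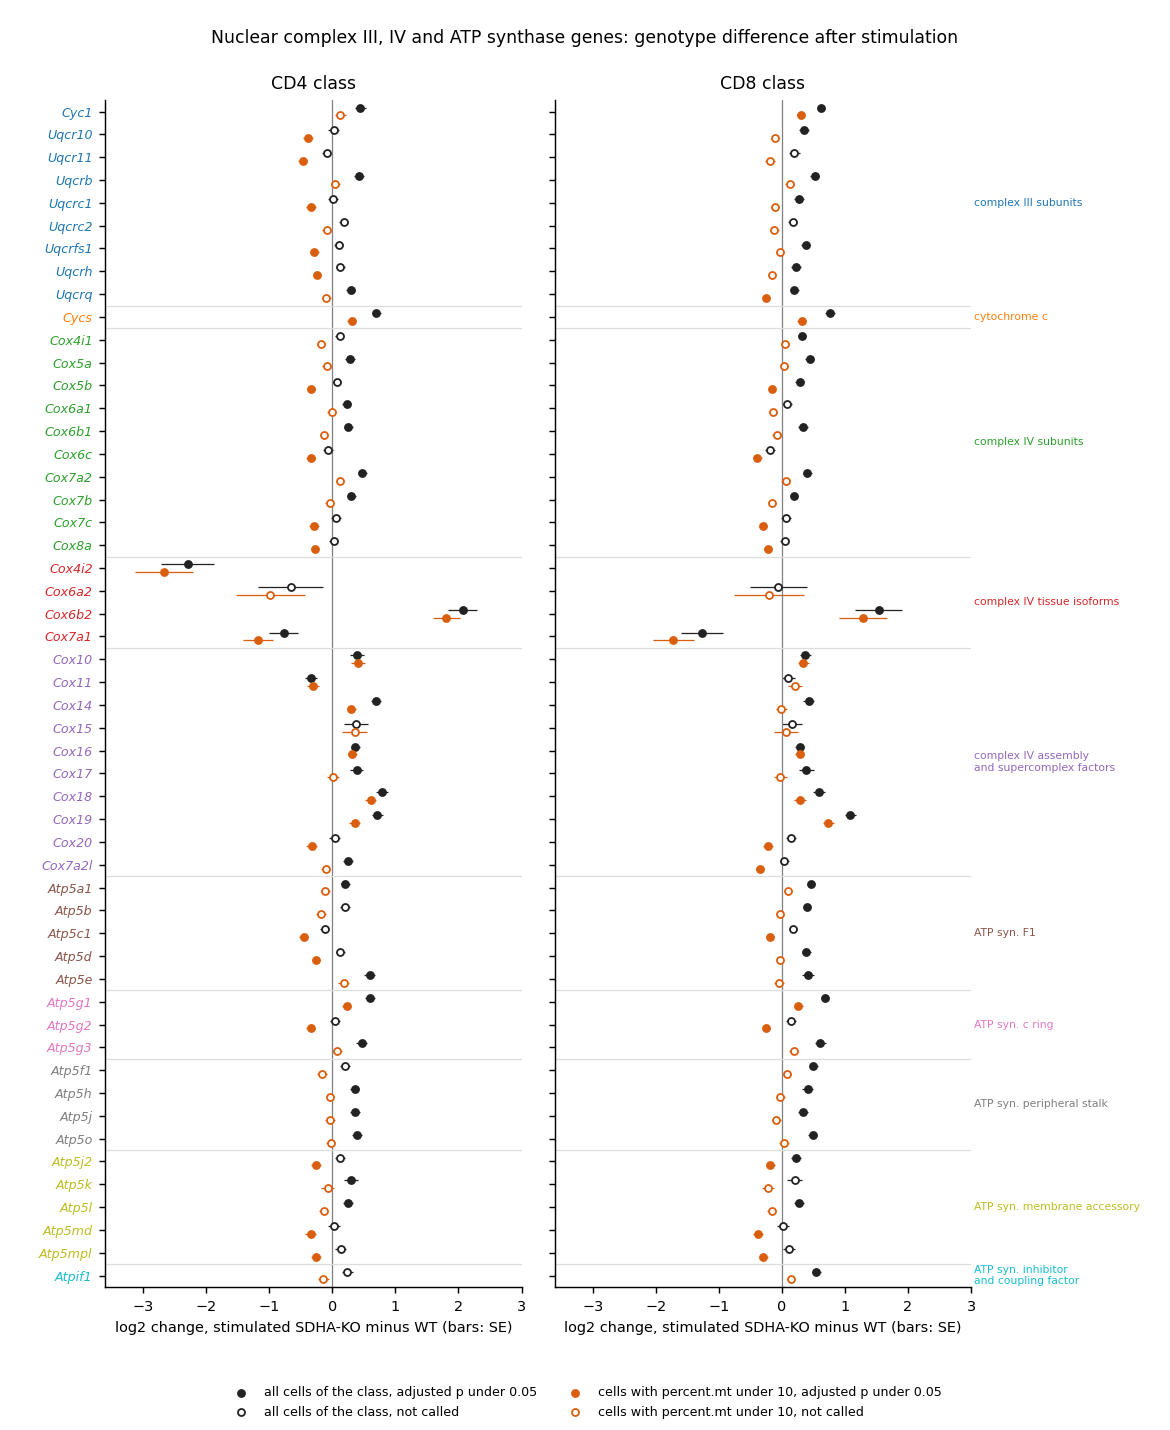
Log2 change of stimulated SDHA-KO minus WT (x axis, bars SE, 2 libraries a group) for all 52 genes ordered by role, CD4 class left and CD8 class right (51 genes), in all cells (black) and in cells with percent.mt under 10 (orange), filled where the adjusted p was under 0.05. The orange points lie to the left of the black ones for most subunits, whereas Cycs, Cox10, Cox16, Cox18, Cox19 and Atp5g1 stay to the right of 0 in both.

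Summed by complex, as CPM of all UMIs of the class without TMM, the 52 genes took 10628 and 10528 in unstimulated WT CD4 cells, 10630 and 10131 in unstimulated SDHA-KO, 16407 and 17109 in stimulated WT and 19298 and 20562 in stimulated SDHA-KO. Stimulation thus added 58.4% in WT and 92.0% in SDHA-KO, and stimulated SDHA-KO lay 18.9% above WT, without overlap. In CD8 cells the sums were 10477 and 10494, 11254 and 10494, 15255 and 16223, and 18406 and 18923, with SDHA-KO 18.6% above WT. In the low-percent.mt cells the gap closed to 4.06% in CD4 (19258 and 19785 against 19722 and 20905) and 1.03% in CD8 cells (19717 and 19851 against 19729 and 20247), and the groups overlapped in both. With 2 libraries a side an exact permutation test of a sum cannot go below p = 0.33.

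The complexes shared this pattern and Cycs did not. In stimulated CD4 cells complex III was at 2452 and 2501 in WT against 2738 and 2923 in SDHA-KO (14.3% higher), complex IV at 6436 and 6708 against 7381 and 7759 (15.2%), ATP synthase at 7180 and 7558 against 8641 and 9295 (21.7%) and Cycs at 339 and 342 against 537 and 584 (64.6%). In low-percent.mt CD4 cells the differences were −1.0%, 3.09%, 4.85% and, for Cycs, 41.0% (408 and 407 against 553 and 597). In CD8 cells they were 18.4%, 10.8%, 23.6% and 63.3% in all cells and −0.725%, −2.06%, 2.58% and 32.0% in the low-percent.mt cells. Over UMIs per cell rather than shares, the 52 genes had 483 and 515 in stimulated WT and 478 and 546 in SDHA-KO CD4 cells, which overlap, and 378 and 434 against 681 and 697 in CD8 cells.

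The subsets named by the study split along the same line. Among stimulated CD4 cells called effector memory the sums were 19615 and 20217 in WT (319 and 373 cells) and 20091 and 21288 in SDHA-KO (901 and 1061 cells), which overlap. Those called central memory were at 7666 and 8095 in WT (540 and 594 cells) and 8999 and 9153 in SDHA-KO (236 and 223 cells), with 19.9% and 18.9% of their UMIs mitochondrially encoded in WT against 10.5% and 10.9%. Cycs was at 417 and 417 against 566 and 610 in CD4 effector memory cells and at 499 and 489 against 651 and 661 in CD8 effector memory cells, higher in SDHA-KO without overlap. In CD8 effector memory cells the sums of all 52 were 20128 and 20064 against 20124 and 20617.

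**Figure D4:**
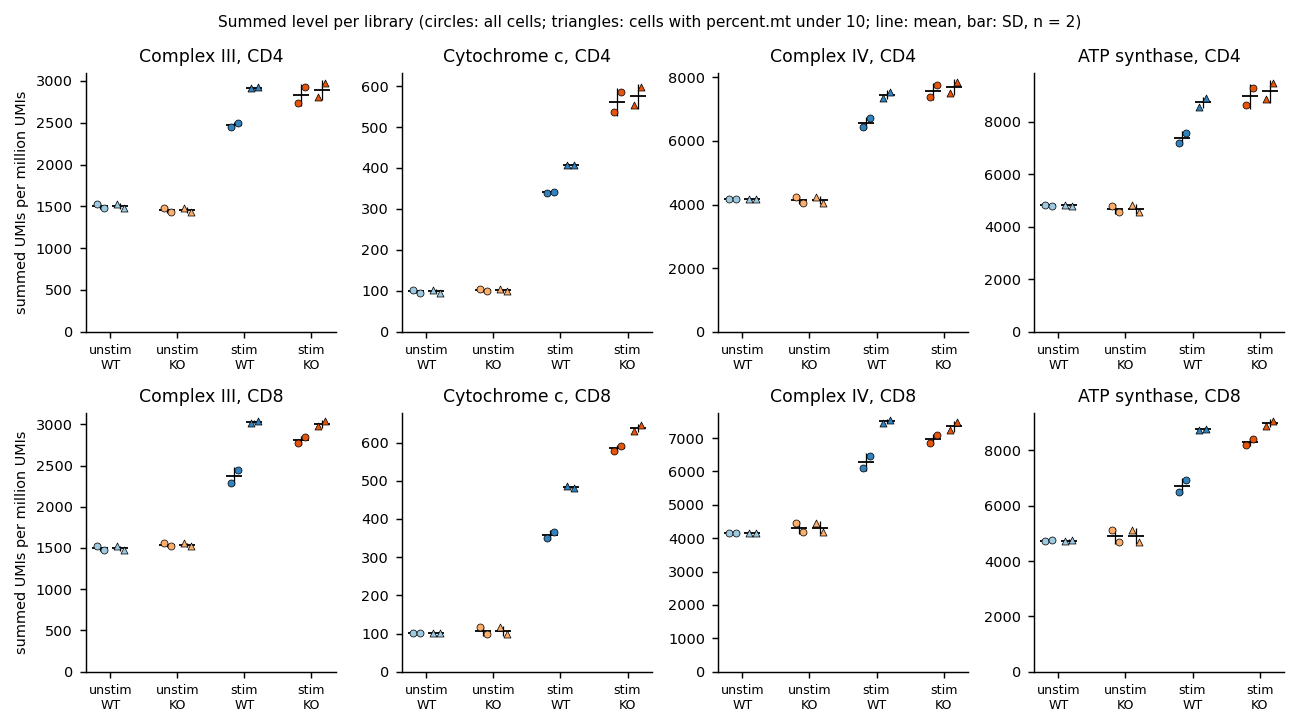
Summed CPM of all UMIs (y axis, from 0) of the genes of each complex and of Cycs by group (x axis), CD4 class above and CD8 class below, each circle 1 library in all cells and each triangle in cells with percent.mt under 10, with mean and SD of 2 libraries. The stimulated WT triangles stand above the circles and level with the SDHA-KO points for the 3 complexes, while for Cycs the SDHA-KO points, 537 to 646, remain above all WT points.

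The 3 genes of the c ring encode the same mature protein behind different import signals, and the shares of Atp5g1 and Atp5g2 among the c-ring UMIs drew closer. In CD4 cells Atp5g1 took 25.6% and 25.4% in unstimulated WT, 27.2% and 28.1% in unstimulated SDHA-KO, 33.6% and 30.9% in stimulated WT and 37.7% and 40.0% in stimulated SDHA-KO. Atp5g2 took 50.9% and 50.4%, 49.6% and 49.7%, 46.5% and 49.1%, and 40.6% and 38.0%. The Atp5g1 share was thus highest and the Atp5g2 share lowest in the stimulated SDHA-KO libraries, without overlap with any other group. In CD8 cells the stimulated shares of Atp5g1 were 35.6% and 32.3% in WT against 39.9% and 39.9%, and those of Atp5g2 44.0% and 46.5% against 37.0% and 36.7%. These shares do not depend on the scaling of libraries, and in the low-percent.mt CD4 cells Atp5g1 took 33.5% and 30.8% against 37.8% and 40.1%. Gene by gene, Atp5g1 was at 381 and 380 against 536 and 619 TMM-scaled CPM in CD4 cells (0.60 ± 0.079, adjusted p = 0.000142) and at 348 and 348 against 545 and 573 in CD8 cells (0.68 ± 0.070, adjusted p = 1.75e-05). Atp5g3 was at 226 and 245 against 308 and 342 (0.46 ± 0.083) and at 199 and 228 against 315 and 337 (0.61 ± 0.088, adjusted p = 0.000176). Atp5g2 was at 528 and 603 against 576 and 588 in CD4 cells, where the groups overlapped (0.04 ± 0.079). In the low-percent.mt cells Atp5g1 was higher by 0.23 ± 0.075 (adjusted p = 0.0384) and Atp5g2 lower by 0.35 (SE 0.074, adjusted p = 0.00421) in CD4 cells.

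**Figure D5:**
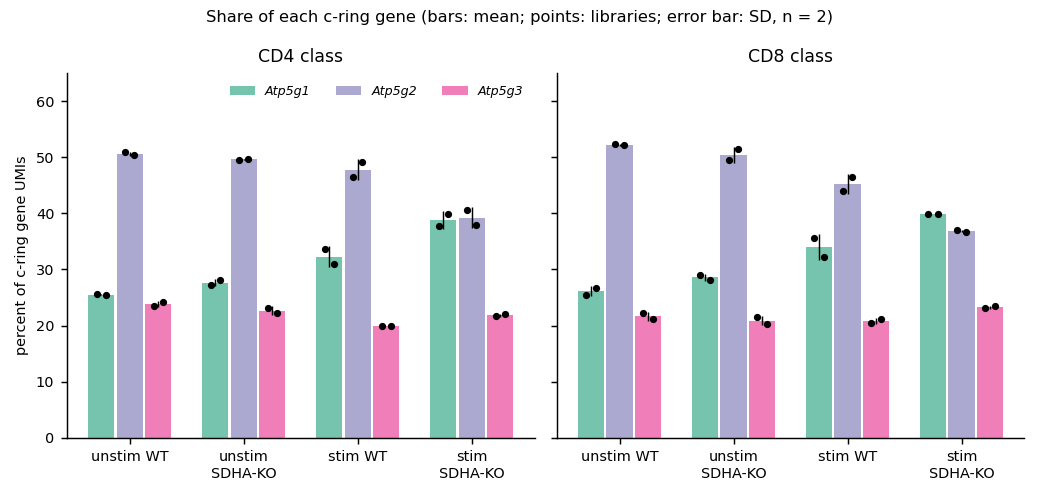
Percent of c-ring gene UMIs (y axis, from 0) from Atp5g1, Atp5g2 and Atp5g3 in each group, CD4 class left and CD8 class right, with bars for the mean, points for the 2 libraries and error bars for the SD. The share of Atp5g1 is at 25.4% to 29.1% before stimulation and reaches 37.7% to 40.0% in stimulated SDHA-KO cells, where that of Atp5g2 is 36.7% to 40.6%.

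The tissue isoforms of complex IV, which replace common subunits in muscle, lung or testis, were counted in few UMIs, and their values are given as UMIs per library. Cox6b2, the testis form of Cox6b1, had 5 and 4 UMIs in unstimulated WT CD4 cells, 7 and 14 in unstimulated SDHA-KO, 48 and 85 in stimulated WT and 277 and 370 in stimulated SDHA-KO. That was 0.474% and 0.692% of the UMIs of Cox6b1 and Cox6b2 together in stimulated WT and 2.03% and 2.06% in stimulated SDHA-KO. In stimulated CD8 cells it had 40 and 74 against 138 and 107 UMIs, or 0.535% and 0.858% against 1.64% and 1.59%. The genotype difference was 2.07 ± 0.23 (adjusted p = 4.14e-05) in CD4 and 1.53 ± 0.37 (adjusted p = 0.00515) in CD8 cells, the latter lost without stimulated WT 1 (1.17, adjusted p = 0.0662).

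Cox7a1, the form of heart and skeletal muscle, went the other way. It had 2 and 2 UMIs in unstimulated WT CD4 cells, 6 and 4 in unstimulated SDHA-KO, 142 and 157 in stimulated WT and 110 and 91 in stimulated SDHA-KO, and in CD8 cells 0 and 0, 1 and 1, 78 and 121, and 28 and 32. A count of 0 allows up to 3 UMIs. After stimulation it was lower in SDHA-KO by 0.77 (SE 0.23, adjusted p = 0.0177) in CD4 and by 1.27 (SE 0.34, adjusted p = 0.00975) in CD8 cells. The CD4 call was lost without stimulated WT 1 (adjusted p = 0.0995), stimulated WT 2 (adjusted p = 0.0909) or stimulated SDHA-KO 2 (adjusted p = 0.141), and the CD8 call without stimulated WT 2 (adjusted p = 0.149) or stimulated SDHA-KO 1 (adjusted p = 0.0619). With the limit on coreceptors and Trdc the Cox7a1 call was lost in both classes (−0.57, adjusted p = 0.0964, and −0.76, adjusted p = 0.105). Cox4i2, the lung form, had 35 and 60 UMIs in stimulated WT and 10 and 12 in SDHA-KO CD4 cells, where it was lower by 2.29 (SE 0.42, adjusted p = 0.00174), and at most 24 in any CD8 library. Cox6a2, a muscle form, had 15 and 34 against 20 and 15 in CD4 cells, where the groups overlapped. Both had at most 2 UMIs in the unstimulated libraries.

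The genotype effect differed between the states, tested as the effect in stimulated minus that in unstimulated libraries. It was larger after stimulation for 16 members in CD4 cells and smaller for none, where 10.9% of genes were larger and 10.5% smaller, and for 27 and none in CD8 cells, where 13.5% and 10.2% of genes were. Atp5e (0.79 ± 0.13, adjusted p = 0.002), Cox18 (0.80 ± 0.16, adjusted p = 0.00537) and Cox19 (0.78 ± 0.15, adjusted p = 0.0045) had the largest values among those that passed in CD4 cells and Cox19 (1.30 ± 0.17, adjusted p = 0.000552), Cyc1 (0.90 ± 0.12, adjusted p = 0.000583) and Cox18 (0.88 ± 0.18, adjusted p = 0.00544) in CD8 cells. The counts move with the libraries and the scaling. In CD4 cells they were 6 without unstimulated WT 1, 7 without unstimulated WT 2 and 10 without stimulated WT 1, and in CD8 cells 14, 13, 12 and 16 without unstimulated WT 1, unstimulated WT 2, unstimulated SDHA-KO 2 and stimulated WT 1. With library totals instead of TMM the CD8 count was 10 larger and 1 smaller (all genes 7.84% and 16.1%). In the low-percent.mt cells 1 member was larger and 4 smaller in CD4 (all genes 6.21% and 8.02%), with Cox18 the larger, and 3 larger and 2 smaller in CD8 (5.10% and 5.99%), with Cox19, Cox10 and Cyc1 the larger.

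Between the classes, the genotype effect after stimulation was larger in CD8 than in CD4 cells for 12 members and smaller for 3, where 11.9% and 10.4% of all genes were, so the larger set is 12 of 52. Cox11 differed most (0.43 ± 0.092, adjusted p = 0.0139), at 30.7 and 29.1 against 23.2 and 24.1 in CD4 cells and 28.9 and 25.9 against 27.9 and 31.0 in CD8 cells. Cox19 (0.36 ± 0.085), Uqcr10 (0.31 ± 0.058), Atpif1 (0.30 ± 0.063), Atp5c1 (0.28 ± 0.059) and Atp5f1 (0.28 ± 0.061) followed, and the smaller were Cox14 (−0.28 ± 0.074), Cox7a2l (−0.23 ± 0.062) and Atp5e (−0.19 ± 0.057). The count of 12 fell to 1 without stimulated WT 1 and to 6 without stimulated WT 2 or stimulated SDHA-KO 1, and the 3 smaller to at most 1 without any single library. With library totals it was 6 larger and 5 smaller (all genes 8.92% and 13.7%). In the low-percent.mt cells 8 were larger and 3 smaller (all genes 9.67% and 8.58%), with Cox14, Cox7a2l and Atp5e again the smaller. A further selection took only cells with a UMI of their own coreceptor, none of the other and none of Trdc. It kept 33.1% and 37.1% of the stimulated SDHA-KO CD8 class against 87.2% and 85.0% in WT, and gave 6 larger and none smaller. The shares of all genes are not given for this selection, so the change in the counts is not read as a result about the members. Of the 12 larger members 3 (Cox5b, Atpif1 and Uqcr10) kept the call there, while Cox11 (0.24, adjusted p = 0.227), Cox19 (0.22, adjusted p = 0.237), Atp5c1 (0.22, adjusted p = 0.0686) and Atp5f1 (0.22, adjusted p = 0.0716) were among those lost.

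The partners of these genes encoded in mitochondrial DNA were lower in stimulated SDHA-KO cells. All 6 (mt-Cytb, mt-Co1, mt-Co2, mt-Co3, mt-Atp6 and mt-Atp8) passed the test as lower than in WT in both classes, also in the low-percent.mt cells, which were chosen on these transcripts. For each 100 UMIs of the nuclear complex IV subunits there were 617 and 610 mitochondrially encoded complex IV UMIs in unstimulated WT CD4 cells, 602 and 634 in unstimulated SDHA-KO, 729 and 663 in stimulated WT and 209 and 195 in stimulated SDHA-KO. In the low-percent.mt cells the stimulated values were 266 and 257 against 157 and 157. In CD8 cells they were 1047 and 848 against 374 and 369 after stimulation, and 280 and 267 against 210 and 204 in the low-percent.mt cells. For complex III the unstimulated values were already lower in SDHA-KO without overlap, 281 and 280 in WT against 153 and 158 in CD4 cells, and 276 and 272 against 201 and 191 in CD8 cells. Those of ATP synthase were too, at 185 and 184 against 146 and 158, and at 194 and 187 against 160 and 174. Complex IV went the other way in unstimulated CD8 cells, at 657 and 628 against 662 and 713. The transcript mt-Cytb, which encodes cytochrome b of complex III, was lower by 2.49 (SE 0.085) in stimulated SDHA-KO CD4 and by 0.75 (SE 0.087) in CD8 cells. In the low-percent.mt CD8 cells the complex III ratio overlapped between the genotypes, at 90.2 and 78.6 in WT against 80.4 and 76.9 in SDHA-KO. Among CD8 cells with percent.mt from 10 to under 25 its direction turned, at 1181 and 1037 against 1418 and 1307, as did that of ATP synthase, at 1037 and 940 against 1219 and 1185, and in cells at 25 or more both were again higher in SDHA-KO, while complex IV stayed lower in each.

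Other nuclear genes of the same complexes were counted from fixed lists, to be read beside the shares of all genes called after stimulation, 22.7% higher and 20.5% lower in CD4 and 26.8% and 23.5% in CD8 cells. Of 15 further complex IV assembly genes 10 were higher and 1 lower in stimulated SDHA-KO cells of each class. In the low-percent.mt cells 4 were higher, with 2 lower in CD4 and 1 lower in CD8. The shares of all genes in those cells were 16.0% higher and 16.7% lower in CD4 and 18.4% and 17.0% in CD8. Coa3, which works with Cox14 on COX1, was higher by 0.93 ± 0.088 in CD4 and 0.97 ± 0.085 in CD8 cells, and by 0.53 in both in the low-percent.mt cells (SE 0.087 and 0.077). Sco2, a copper chaperone, was higher by 1.08 ± 0.10 in CD8 cells. Higd1a, a hypoxia-inducible complex IV partner, was lower by 1.15 (SE 0.081) in CD4 and by 0.79 (SE 0.11) in CD8 cells, after rising by 3.001 ± 0.091 and 2.50 ± 0.13 on stimulation of WT cells. Of 6 complex III assembly genes 2 were higher and 1 lower in CD4 and 3 higher and 1 lower in CD8 cells, with Uqcc2 higher by 0.59 ± 0.089 and 0.59 ± 0.077. Of 3 ATP synthase assembly genes 1 and 2 were higher, with Tmem70 at 0.48 ± 0.11 and 0.79 ± 0.12. The 3 carriers of ADP, ATP and phosphate and the heme lyase Hccs had 1 higher and 1 lower in CD4 cells and 4 higher in CD8 cells. Of 9 tested regulators 3 were higher and 3 lower in CD4 and 4 were higher in CD8 cells: Pprc1, a coactivator of respiratory genes, was higher by 0.54 ± 0.10 and 0.77 ± 0.090, and by 0.52 ± 0.10 and 0.77 ± 0.11 in the low-percent.mt cells, whereas the transcript of Nrf1 was lower by 0.50 (SE 0.070) in CD4 cells. In CD4 cells the lists of 3 to 9 genes lay near the shares of all genes, and nothing particular to them is read from their counts.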

How the data were processed

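T cells purified from spleens were profiled by 10x 3′ single-cell RNA-seq in 8 libraries. The authors made the deposited UMI counts per gene and cell with bcl2fastq and Cell Ranger on mm10 (versions are not given in the sources used here), filtered cells in Seurat, dropped clusters lacking CD3 transcripts and deposited the CD4 and CD8 classes and memory subsets used here. The deposited percent.mt values are the percent of a cell's UMIs from mitochondrially encoded genes. How doublets were treated beyond upper limits on genes per cell is not given in the sources used here, and no caller was run. Library names in the cell table were read as stimulated and unstimulated from their short codes.

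UMI counts were summed per library and class, so that libraries and not cells are the replicates. Genes were filtered with filterByExpr (at least 10 counts, 15 in total), scaled by TMM and tested with edgeR 4.0.16 (quasi-likelihood, Benjamini-Hochberg over all genes, 0.05) in a fit of all 8 libraries of a class. The CD8 minus CD4 comparison was fitted on both classes of the 4 stimulated libraries, blocking on library. Sums by complex were expressed as CPM of all UMIs. Alternatives were DESeq2 1.42.0, library totals, nuclear totals, no filter, a replicate block, leaving out each library, and cells with percent.mt under 10, with their own coreceptor alone, or with at least 20000 UMIs. The combinations of limits were added after values were seen. The members and lists were chosen with earlier results of these data known. Named were, per class, the 6 largest called changes by genotype and by WT stimulation among members at 20 CPM or more, in each role the most abundant member and the largest called rise and fall, all tissue isoforms, up to 6 called between the classes, and in the other lists the largest called rise and fall. Other genes that the text names were chosen after their values were seen. The script was tested on simulated data. Some members have processed pseudogenes or near-identical copies, so their counts are less certain.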

Additional observations from a re-analysis of the deposited data

Results flagged for a closer look

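The effect of the knockout differed between the stimulated and the unstimulated state by a test of the difference itself (edgeR). In CD4 cells it was larger after stimulation for 16 members and smaller for 0, where 10.9% of all genes were larger and 10.5% smaller. The log2 differences were 0.80 for Cox18, 0.79 for Atp5e, 0.78 for Cox19, 0.68 for Cycs, 0.63 for Cox14 and 0.485 for Atp5g1. In CD8 cells the effect was larger for 27 and smaller for 0, where 13.5% and 10.2% of all genes were. The differences there were 1.30 for Cox19, 0.90 for Cyc1, 0.88 for Cox18, 0.83 for Cycs, 0.70 for Atp5g3 and 0.60 for Atp5g1. In the cells with percent.mt under 10, Cox18 in CD4 cells (0.62, adjusted p = 0.0179) and Cox19 (0.94, adjusted p = 0.00644) and Cyc1 (0.58, adjusted p = 0.0112) in CD8 cells still passed, and Cycs stood at 0.29 in CD4 and 0.37 in CD8 cells without passing.

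The effect after stimulation also differed between the classes. It was larger in CD8 than in CD4 cells for 12 members and smaller for 3, where 11.9% and 10.4% of all genes were. The log2 differences were 0.43 for Cox11, 0.36 for Cox19, 0.31 for Uqcr10, 0.30 for Atpif1, 0.28 for Atp5c1 and 0.28 for Atp5f1. Without stimulated WT 1 the calls of Cox19, Uqcr10, Atpif1, Atp5c1 and Atp5f1 were lost. With the limit on coreceptors and Trdc, 3 of the 12 larger (Cox5b, Atpif1 and Uqcr10) and none of the 3 smaller kept the call, so Cox11, Cox19, Atp5c1 and Atp5f1 were lost.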

How the results depend on the processing

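The selection of cells moved the genotype results most. In cells with percent.mt under 10, stimulated SDHA-KO minus WT gave 8 members higher and 19 lower in CD4 and 8 higher and 13 lower in CD8, WT stimulation 4 lower in CD4, and the difference between states 1 higher and 4 lower in CD4 and 3 higher and 2 lower in CD8. With library totals in the same cells these were 14 higher in CD4 and 12 higher and 7 lower in CD8 by genotype, 3 lower in CD4 and 41 higher and 4 lower in CD8 on WT stimulation, 2 (CD4) and 3 (CD8) lower on SDHA-KO stimulation, 8 higher in CD4 and 3 higher and 3 lower in CD8 between states, and 1 higher and 8 lower between classes. Adding the limit on coreceptors and Trdc gave 7 and 20 in CD4 and 8 and 7 in CD8 by genotype, 4 lower on WT stimulation in CD4 and on SDHA-KO stimulation in CD8, 1 and 5 (CD4) and 2 higher (CD8) between states, and 3 and 0 between classes. With at least 20000 UMIs per cell it was 8 and 18 in CD4, 7 and 17 in CD8, and 3 higher between classes. The cause was not tested. The counts in this section describe how the calls moved. Most stand without the shares of all genes, so they are not read as results about the members.

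Stimulated SDHA-KO over WT and WT stimulated over unstimulated ratios of the sums in cells with percent.mt under 10 were, for CD4, 0.990 and 1.94 (complex III), 1.41 and 4.14 (Cycs), 1.03 and 1.79 (complex IV) and 1.05 and 1.82 (ATP synthase), and for CD8 0.993 and 2.03, 1.32 and 4.78, 0.979 and 1.81, and 1.03 and 1.85. The complex III ratio in both classes and the complex IV ratio in CD8 changed sides of 1. The Atp5g3 share in stimulated WT CD4 cells was 19.96%. Per nuclear UMI they were 1.09 and 1.71 for complex III and 1.09 and 1.63 for complex IV in CD4, and 1.12 and 1.68 (complex III), 1.55 and 3.74 (Cycs), 1.05 and 1.61 (complex IV) and 1.17 and 1.499 (ATP synthase) in CD8. With the limit on coreceptors and Trdc the CD8 genotype ratios were 1.27, 1.73, 1.22 and 1.32.

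DESeq2 gave 1 lower in CD4 and 0 in CD8 by genotype, 1 lower in unstimulated CD8, 2 lower on SDHA-KO stimulation in CD4 and 0 lower between classes. Library totals gave 2 lower in CD8 by genotype, 2 lower on SDHA-KO stimulation in CD4, 5 lower on WT stimulation in CD8, 10 higher and 1 lower between states in CD8, and 6 and 5 between classes. No filter gave 2 lower on SDHA-KO stimulation in CD4. The limit on coreceptors and Trdc gave 0 lower in CD8 by genotype and 6 and 0 between classes, and a fit of the 4 libraries of the state 1 lower in unstimulated CD8.

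Leaving out 1 library at a time gave 18 to 29 higher and 1 to 3 lower by genotype in CD4, 24 to 35 and 0 to 2 in CD8, 2 to 3 lower on SDHA-KO stimulation in CD4, 6 to 21 higher between states in CD4 and 12 to 29 in CD8, and 1 to 14 higher and 0 to 1 lower between classes. The CD8 genotype count lower was 2 without stimulated WT 1 and 0 without stimulated WT 2 or stimulated SDHA-KO 1.

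The log2 genotype differences of these genes changed sign. In cells with percent.mt under 10 they were, in CD4, −0.25 (Uqcrh), −0.29 (Cox7c), −0.11 (Cox7a2l), −0.043 (Atp5h), −0.023 (Atp5o), −0.35 (Atp5g2), −0.26 (Atp5j2) and −0.075 (Atp5k), and in CD8 −0.15 (Uqcrh), −0.31 (Cox7c), −0.35 (Cox7a2l), −0.046 (Atp5e), −0.023 (Atp5h), −0.25 (Atp5g2), −0.18 (Atp5j2) and −0.16 (Atp5l). With the limit on coreceptors and Trdc as well they were −0.22 (Uqcrh), −0.31 (Cox7c), −0.084 (Cox7a2l), −0.037 (Atp5h), −0.055 (Atp5o), −0.36 (Atp5g2), −0.27 (Atp5j2) and −0.10 (Atp5k) in CD4, and −0.11 (Uqcrh), −0.081 (Cox5a), −0.058 (Atp5f1), −0.23 (Atp5g2), −0.19 (Atp5j2) and −0.032 (Atp5l) in CD8. With at least 20000 UMIs they were −0.255 (Uqcrh), −0.26 (Cox7c), −0.092 (Cox7a2l), −0.040 (Atp5h), −0.30 (Atp5g2), −0.25 (Atp5j2) and −0.067 (Atp5k) in CD4, and −0.18 (Uqcrh), −0.33 (Cox7c), −0.38 (Cox7a2l), −0.076 (Atp5e), −0.048 (Atp5h), −0.27 (Atp5g2), −0.21 (Atp5j2) and −0.19 (Atp5l) in CD8. With library totals in cells with percent.mt under 10 they were −0.066 (Uqcrh), −0.22 (Cox7c), −0.26 (Cox7a2l), −0.096 (Atp5j2) and −0.074 (Atp5l) in CD8.

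The replicate numbers did not pair the libraries, as the correlation of same-numbered deviations from the group means was −0.192 to 0.0726. With the replicate number as a block the genotype counts were 24 and 3 in CD4 and 32 and 1 in CD8, those between states 12 and 25 higher, and 2 members were lower on SDHA-KO stimulation in CD4. With the stimulated SDHA-KO numbers crossed, the CD4 genotype counts were 27 and 3. Tissue isoforms at under 100 UMIs in a group are limited by depth.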
